A study of Mus musculus with 6 samples.

Results

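The comparison described here sets 1 array of Ezh2 KO Th2 cells against 1 array of wild type (WT) Th2 cells, 2 of the 6 arrays of the series, chosen by the titles and culture conditions in the labels. Gene expression was measured on Affymetrix 3' expression arrays, which give each probe set (a group of short probes against one transcript) a fluorescence intensity. The other 4 arrays hold the same genotypes in unpolarized and Th1 cultures. All cells were naive CD44low CD62Lhigh CD4 T cells purified from the spleens of C57BL/6 mice, either Ezh2 KO or WT, and all were stimulated for 2 days with 10 µg/ml anti-TCRβ and 1 µg/ml anti-CD28 in 15 ng/ml IL-2, then grown for 3 days in the same cytokines without stimulation. The Th2 cultures received 10 ng/ml IL-4 together with antibody to IFN-γ, the unpolarized cultures received antibodies to both IL-4 and IFN-γ, and the Th1 cultures received 1 ng/ml IL-12 with antibody to IL-4. The mice's age, the deleted part of Ezh2, the promoter that drove any deletion, and whether the arrays came from separate or pooled mice are unknown here. With 1 array a group, no difference within the Th2 pair has a replicate or a test. Values are intensities, and differences are log2 KO minus log2 WT after raising values under 11.3 (the 20th percentile of all values) to that floor, so a log2 difference of 1 is 2-fold. Where 1 array lay at the floor, the difference is a bound and is written as at least that size.

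The Ezh2 protein is the enzyme of Polycomb repressive complex 2 (PRC2) and methylates lysine 27 of histone H3. Genes that carry this mark are usually kept silent, among them genes of T helper fates that a cell has not taken. Th2 cells form when IL-4 acts through STAT6 and the transcription factor GATA3, and they secrete IL-4, IL-5 and IL-13, whereas Th1 cells depend on T-bet and secrete IFN-γ.

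The Ezh2 probe set read 4946 on the KO Th2 array and 7677 on the WT Th2 array, a log2 difference of -0.63, against -0.49 in the unpolarized pair and -0.43 in the Th1 pair. It was lower in KO in 3 of 3 pairs, and limma's additive fit over the 3 cultures gave an adjusted p of 0.0437. That call, like every other of this fit, was lost with no filter on dim genes (0 genes called by limma, 4711 at an unadjusted p under 0.05) and without any 1 of the 3 cultures. Because the deleted part of the gene is not known here, a probe set outside it checks nothing about the deletion. The remaining PRC2 genes differed by less than 2-fold in the Th2 pair, and the median of the 11 compared was -0.21. Among them Ezh1, the alternative catalytic subunit, read 702 in KO and 699 in WT, Eed 3645 in KO and 3421 in WT, and Suz12 6385 in KO and 7389 in WT.

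The WT Th2 array carried its label only in part. Il4 read 227 on it, against 24.1 on the WT unpolarized and 20.5 on the WT Th1 array, and Gata3 read 830, against 575 and 475. Il5 (31.2) and Il13 (6.26) on the WT Th2 array lay under the median of all values (64.4), the limit used here for low signal. The genes for the Th2 receptors Ccr8, Ccr3 and Ptgdr2 were under that limit on both Th2 arrays. CD4 T cell markers were bright on both arrays, with Cd3d at 25699 in KO and 23525 in WT and Cd4 at 315 in KO and 548 in WT, and 0 of 8 measured markers differed by 2-fold.

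Of 18193 genes with a named probe set, 11572 reached the low-signal limit on at least 1 of the 6 arrays and were compared. In the Th2 pair 1112 genes (9.61%) were at least 2-fold higher in KO and 692 (5.98%) at least 2-fold lower, while the median difference of all 11572 genes was -0.06. The asymmetry grew with size. At least 4-fold higher were 432 genes (3.73%) and at least 4-fold lower 165 (1.43%), and at 10-fold the counts were 119 (1.03%) higher and 12 (0.104%) lower. Of the genes at least 4-fold higher, 248 were over the low-signal limit in KO and under it in WT, with a median intensity of 135 in KO and 16.1 in WT, and 7 of these reached 1000 in KO. Of those at least 4-fold lower, 109 were under the limit in KO and over it in WT, with a median of 13.3 in KO and 88.5 in WT, and 0 of them reached 1000 in WT. A gene that was compared only because its KO arrays were bright had to be higher in KO, so counts over the compared members of a list are descriptions. RNA came from whole cultures, in which fewer cells of a kind and less RNA per cell cannot be told apart.

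**Figure D1:**
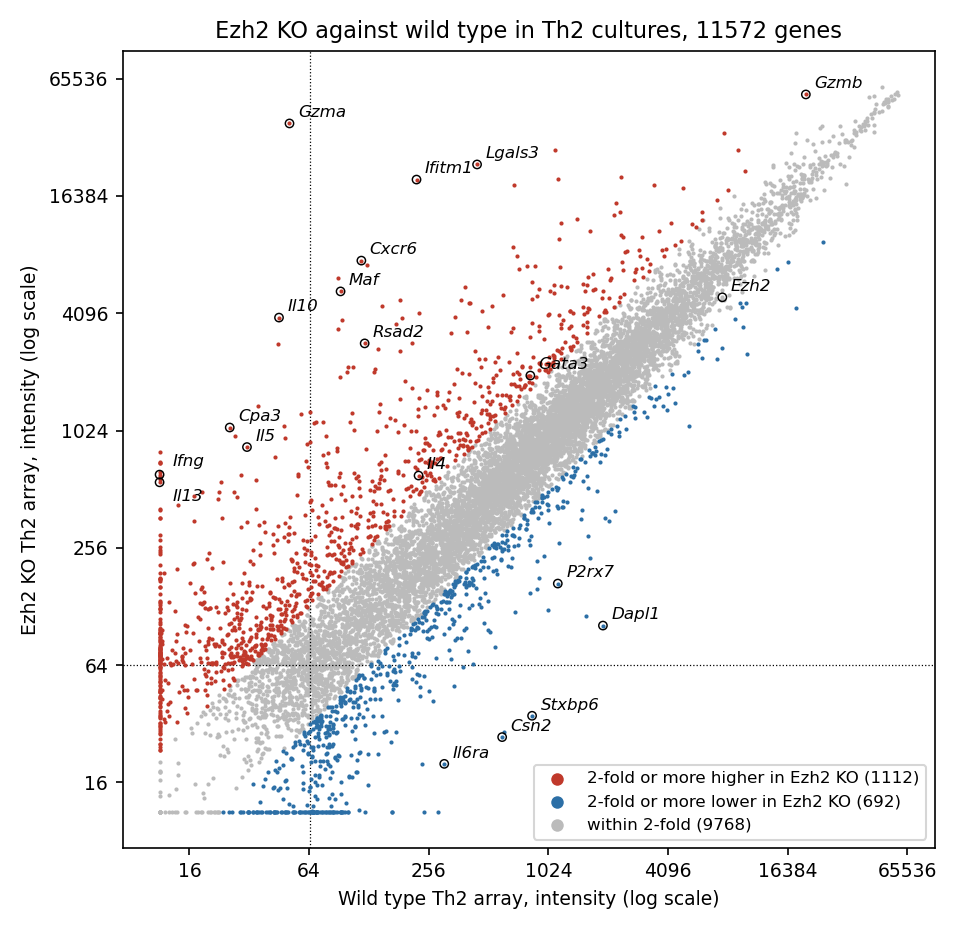
Intensity of each compared gene on the KO Th2 array (vertical, log scale) against the WT Th2 array (horizontal, log scale), with dotted lines at the low-signal limit and genes described in the text labelled. Gzma lies farthest above the diagonal, at 38608 in KO and 51.0 in WT, and Stxbp6 and Csn2 lie farthest below it among the labelled genes.

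The cytokines of the Th2 programme were higher in the KO Th2 array. Il5, the eosinophil growth factor, read 842 in KO and 31.2 in WT, a log2 difference of 4.76, and Il13, the cytokine of mucus and airway responses, read 555 in KO and 6.26 in WT, a difference of at least 5.62. Il4 itself differed less, with 601 in KO and 227 in WT (1.40). Il10, which restrains inflammation, read 3891 in KO and 45.2 in WT (6.43), and its level on the KO Th2 array was also above that on the KO unpolarized (284) and KO Th1 (361) arrays. Il24, an IL-10 family cytokine, read 2611 in KO and 183 in WT (3.83), and Csf2, which encodes GM-CSF, 1256 in KO and 105 in WT (3.58). Il6 read 174 in KO and 5.50 in WT, at least 3.94. All 7 compared members of the Th2 cytokine list were thus at least 2-fold higher in KO, with a median of 3.94, against 9.61% of all compared genes. Il5, Il13, Il10 and Il6 were under the low-signal limit on all WT arrays, so they were compared only through KO arrays. The other 4 measured members, Il9, Il3, Il31 and Il21, were not compared because no array reached the limit.

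The cytokines did not share one order across cultures. Il4 differed by 1.40 in the Th2 pair, by 3.26 in the unpolarized pair and by 3.31 in the Th1 pair, and the WT Th2 array had the highest Il4 level of the 3 WT arrays. For Il5 the difference was 4.76 in Th2, at least 2.34 in unpolarized and 0.57 in Th1 cultures, and for Il10 it was 6.43, 3.51 and 3.38. Csf2 was alike in the 3 pairs (3.58, 3.49 and 3.63). The interaction of genotype with Th2 culture was fitted for every compared gene with limma and called 0 of 11572 (0.0%) at an adjusted p of 0.05, its lowest adjusted p being 0.638. It rested on 1 residual degree of freedom, and 745 genes had an unadjusted p under 0.05. No gene or list is therefore called particular to the Th2 pair.

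**Figure D2:**
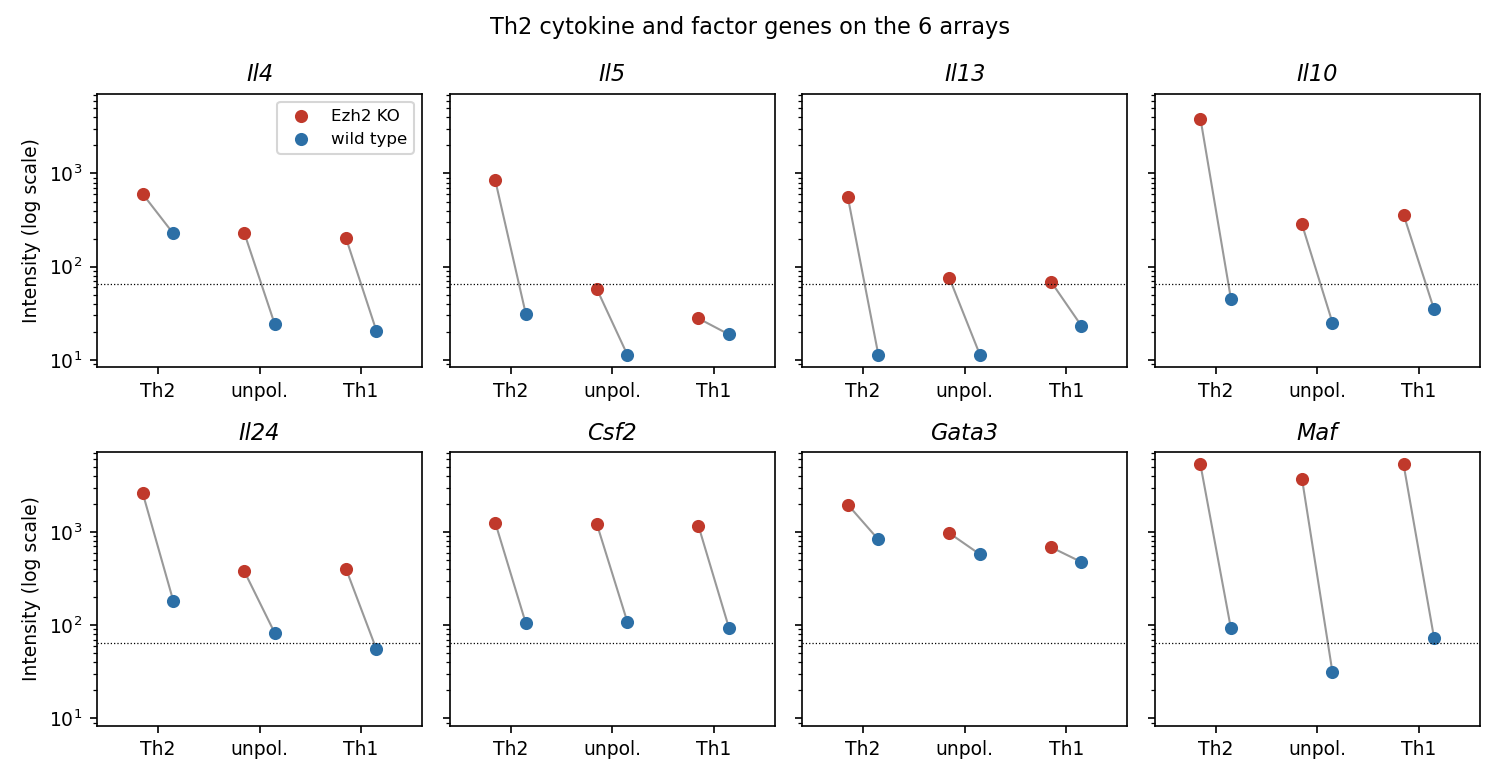
Intensity (log scale, values under the floor of 11.3 drawn at it) of 8 genes on each of the 6 arrays, with KO left of WT within each culture, 1 point an array, and a dotted line at the low-signal limit of 64.4. Il5 stands at 842 on the KO Th2 array, above 57.4 on the KO unpolarized and 27.8 on the KO Th1 array, whereas Maf reads 3721 or more on the 3 KO arrays and 92.2 or less on the 3 WT arrays.

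Among Th2 transcription factors, Maf and Pparg differed most. Maf, which activates the Il4 promoter, read 5302 in KO and 92.2 in WT (5.85), and Pparg, a lipid-sensing nuclear receptor of Th2 cells, 1272 in KO and 64.9 in WT (4.29). Gata3 read 1962 in KO and 830 in WT (1.24). Its log2 difference was thus smaller than those of Il5 and Il13, which GATA3 is known to activate. Batf (1.39), Bhlhe40 (1.25) and Junb (1.01) were also at least 2-fold higher, which made 6 of 17 compared members. The share of all compared genes was 9.61%. Sox4, an inhibitor of GATA3, was lower, with 92.4 in KO and 305 in WT (-1.72). The median of the list was 0.23. In the additive fit, limma gave adjusted p values of 0.0143 for Maf and Pparg, higher in 3 of 3 pairs, and 0.0559 for Gata3, which missed the threshold. That fit includes the Th2 pair, in which Maf and Pparg had the largest differences of the list.

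IL-4 signalling genes were near the share of all genes past 2-fold. Il4ra, the receptor chain, read 2569 in KO and 2863 in WT (-0.16), Jak1 3731 in KO and 3816 in WT (-0.03), and the IL-4-responsive STAT gene Stat6 885 in KO and 1708 in WT (-0.95). Of 10 compared members 1 was at least 2-fold higher, Socs3 (5478 in KO, 1746 in WT), an inhibitor of cytokine receptor signalling, 0 were lower, and the median was -0.02, while 9.61% of all compared genes were at least 2-fold higher. Ptpn6, which encodes the phosphatase SHP-1, read 3013 in KO and 5884 in WT (-0.97). Among surface and eicosanoid genes of Th2 cells, 3 of 11 were at least 2-fold higher and 0 lower, with a median of 0.34. These were the leukotriene receptor genes Ltb4r1 (3930 in KO, 348 in WT) and Cysltr1 (7158 in KO, 879 in WT) and the costimulatory receptor gene Icos (12330 in KO, 6060 in WT). Ccr4, a homing receptor of Th2 cells, read 143 in KO and 165 in WT.

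The promoters of Il13 and Gata3 show the contrast in base composition that is counted over all promoters further on. Each is given as the 250 bases before the first listed start in RefSeq (GRCm38.p6), 5′ to 3′ on the gene's strand, with CG dinucleotides in capitals. Il13 has 3 of them and Gata3 has 19.
Il13, chr11:53634703-53634952, minus strand: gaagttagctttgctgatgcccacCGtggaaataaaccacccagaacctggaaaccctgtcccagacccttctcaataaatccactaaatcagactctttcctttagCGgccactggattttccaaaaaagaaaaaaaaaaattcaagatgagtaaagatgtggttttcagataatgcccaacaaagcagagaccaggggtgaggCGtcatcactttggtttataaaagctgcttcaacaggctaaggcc
Gata3, chr2:9878601-9878850, minus strand: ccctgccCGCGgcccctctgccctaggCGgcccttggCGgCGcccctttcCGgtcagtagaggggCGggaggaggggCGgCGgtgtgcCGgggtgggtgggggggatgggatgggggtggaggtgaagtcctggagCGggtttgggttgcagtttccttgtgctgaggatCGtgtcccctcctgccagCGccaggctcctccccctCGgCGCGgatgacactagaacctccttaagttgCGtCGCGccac

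Genes of the Th1 programme were higher in the KO Th2 culture as well, although IL-4 and antibody to IFN-γ were present. Ifng read 608 in KO Th2 and 4.03 in WT Th2, a difference of at least 5.75, and the KO Th2 level was close to that of the KO Th1 array (767). Tbx21, which encodes T-bet, read 336 in KO and 80.8 in WT (2.05), and Eomes, a related T-box factor of memory and cytotoxic cells, 1088 in KO and 192 in WT (2.50). The WT Th1 array had 530 for Tbx21, above the KO Th2 array, but only 25.8 for Ifng. Of 22 compared Th1 genes, 16 were at least 2-fold higher and 2 lower, with a median of 1.95. The shares of all compared genes were 9.61% higher and 5.98% lower. The receptor genes Il12rb1 (1784 in KO, 344 in WT) and Ifngr1 (7525 in KO, 2412 in WT) were among the higher ones. Ifngr2, the signalling chain of the IFN-γ receptor, was lower, at 264 in KO and 721 in WT (-1.45), as was Lta (4632 in KO, 9428 in WT). The chemokine genes Ccl5 (4093 in KO, 230 in WT) and Ccl3 (407 in KO, 1.98 in WT) were higher by 4.15 and by at least 5.17. Hlx, a homeobox partner of T-bet, read 83.8 in KO and 3.13 in WT, at least 2.89, and all 4 arrays of the other cultures were at the floor for it. Ifng, Ccl3, Hlx, Il12rb2 and Xcl1 were under the low-signal limit on all WT arrays, so they were compared only through KO arrays.

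Cytotoxic genes gave the largest difference of the whole array. Gzma, the gene for the protease granzyme A, read 38608 in KO Th2 and 51.0 in WT Th2, which is 757-fold or 9.56 on the log2 scale. The same gene differed by 8.81 in the unpolarized and 8.23 in the Th1 pair (limma adjusted p = 0.0143, higher in 3 of 3). Gzma was named for its Th2 difference, and that pair was 1 of the 3 in the fit. The Gzma promoter is shown because it belongs to the largest difference and holds only 3 CG dinucleotides (capitals).
Gzma, chr13:113100982-113101231, minus strand: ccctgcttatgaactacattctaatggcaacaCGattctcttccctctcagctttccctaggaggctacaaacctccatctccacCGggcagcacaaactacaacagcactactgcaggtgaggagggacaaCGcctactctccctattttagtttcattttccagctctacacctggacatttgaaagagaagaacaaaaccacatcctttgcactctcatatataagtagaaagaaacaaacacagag
Gzmb, granzyme B, was already bright in WT, with 54389 in KO and 20194 in WT (1.43). Perforin (Prf1) read 960 in KO and 78.0 in WT (3.62), and the granule membrane gene Nkg7 7204 in KO and 125 in WT (5.85). The NK receptor genes Klrd1 (2837 in KO, 44.7 in WT), Klrc1 (224 in KO, 19.5 in WT) and Klrk1 (347 in KO, 38.1 in WT) went the same way. Of 23 compared cytotoxic genes, 18 were at least 2-fold higher and 0 lower, with a median of 2.44. The shares of all compared genes were 9.61% and 5.98%. Gzma, Gzmd, Gzme, Gzmf, Gzmg and Klrc1 were under the low-signal limit on all WT arrays. They were thus compared only through KO arrays and had to be higher. Gzmd and Gzmg, granzymes of activated killer cells, were at least 5.95 higher, and Gzme at least 5.70. The probe sets of Gzmd and Gzme may bind transcripts of their near-identical neighbours, so these values are uncertain as values of single genes.

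Markers of other cell types gave mixed values, while 9.61% of all compared genes were at least 2-fold higher and 5.98% lower. In the NK and NKT list Ncr1 (26.8 in KO, 18.1 in WT), Tyrobp (32.2 in KO, 48.9 in WT) and Zbtb16 (26.4 in KO, 34.5 in WT) lay under the low-signal limit. Of its 2 compared members 1 was at least 2-fold higher, Fcer1g (110 in KO, 18.1 in WT), and Il2rb read 2412 in KO and 1487 in WT. The list's summed intensity was 2610 in KO and 1616 in WT. Cd8a (89.3 in KO, 131 in WT) and Cd8b1 (450 in KO, 277 in WT) differed by less than 2-fold. Markers of mast cells and basophils summed to 1347 in KO and 287 in WT because of Cpa3, a mast cell carboxypeptidase gene, which read 1061 in KO and 25.5 in WT (5.38). The high-affinity IgE receptor genes Fcer1a (2.28 in KO, 4.61 in WT) and Ms4a2 (4.28 in KO, 17.0 in WT) were at or near the floor, and Gata2 was lower (24.4 in KO, 78.8 in WT). Of the B cell markers, Ms4a1 (669 in KO, 63.5 in WT) and Blnk (73.1 in KO, 5.35 in WT) were higher, while Cd79a (18.6 in KO, 24.6 in WT) and Pax5 (7.87 in KO, 17.6 in WT) were under the limit and Ighm read 4348 in KO and 8368 in WT. Myeloid markers summed to 600 in KO and 620 in WT, with Mpeg1 the only member of 6 at 2-fold or more (98.2 in KO, 6.82 in WT). The erythroid markers had 1 compared member, Gata1 (261 in KO, 687 in WT), and the γδ T cell markers had 2, of which Cd163l1 was higher (157 in KO, 63.6 in WT). Fcer1g, Cpa3, Blnk and Mpeg1 were under the low-signal limit on all WT arrays, so they were compared only through KO arrays. The part of other cell types in the differences was not tested.

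Receptors for chemokines and for inhibitory signals followed the same direction. Cxcr6, a receptor of effector and tissue-resident T cells, read 7631 in KO and 117 in WT (6.02), Ccr2 3889 in KO and 189 in WT (4.37), and Ccr1 962 in KO and 27.1 in WT (5.15). Cxcr4 was 1702 in KO and 211 in WT (3.01). Altogether, 7 of 9 compared chemokine receptor genes were at least 2-fold higher, 0 were lower and the median was 2.42, with Ccr7, the lymph node homing receptor, at 1731 in KO and 3036 in WT (-0.81). Of the inhibitory receptors 5 of 10 were at least 2-fold higher, all of them at least 4-fold, and 0 lower, with a median of 1.62. Among all compared genes 9.61% were at least 2-fold higher and 5.98% lower, and 3.73% were at least 4-fold higher. Havcr2, the gene for TIM-3, read 472 in KO and 16.8 in WT, Cd200r1 1113 in KO and 68.0 in WT, Cd160 873 in KO and 62.4 in WT, and Cd244a 189 in KO and 11.9 in WT. Ccr1, Ccr6, Havcr2 and Cd244a were under the low-signal limit on all WT arrays, so they were compared only through KO arrays. Pdcd1 (288 in KO, 178 in WT) and Ctla4 (4744 in KO, 4316 in WT) stayed within 2-fold.

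Interferon-stimulated genes were higher throughout their list. All 31 compared members were above 0 in the Th2 pair, 24 were at least 2-fold higher, and the median was 1.96, against 1.53 in the unpolarized and 0.63 in the Th1 pair. In that Th2 pair 5167 of all 11572 compared genes were above 0, 9.61% were at least 2-fold higher and 5.98% lower. Rsad2, which encodes the antiviral protein viperin, read 2868 in KO and 122 in WT (4.56), Mx1, an antiviral GTPase, 2174 in KO and 101 in WT (4.43), and Oasl2 495 in KO and 26.7 in WT (4.21). Ifit1 read 1130 in KO and 75.0 in WT (3.91), while the family member Ifit2 read 1402 in KO and 1201 in WT (0.22). For 27 of the 31 the Th2 difference was above that of both other pairs, which was so for 32.9% of all compared genes, and the interaction test called none of them. A larger Th2 difference need not mean a higher KO Th2 level. Rsad2 read 2868, 2466 and 2944 on the KO Th2, unpolarized and Th1 arrays, and 122, 221 and 580 on the WT ones. Mx1 read 2174, 1676 and 2246 in KO and 101, 171 and 575 in WT. Genes induced by IFN-γ were at least 2-fold higher in 10 of 18, with a median of 1.35. They included the guanylate-binding protein genes Gbp6 (8966 in KO, 681 in WT) and Gbp2 (8055 in KO, 709 in WT) and the GTPase gene Iigp1 (7150 in KO, 798 in WT), while the immunoproteasome gene Psmb8 read 19365 in KO and 17470 in WT. Of the MHC class II genes (median 0.57) 3 of 9 were higher, led by H2-Aa (2037 in KO, 135 in WT), and H2-Ob was lower (96.5 in KO, 209 in WT).

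The interferon-stimulated response element (ISRE), bound by STAT and IRF factors downstream of interferon receptors, was searched in promoters as a pair of GAAA separated by any 2 bases, on both strands, in the 250 bases before the start. It was present in 10 of the 23 interferon-stimulated genes with a promoter sequence (43.5%), against 2.61% of all 9405 genes with one. The 10 genes with a match had a median Th2 difference of 2.21, between 0.61 and 4.56, and the 13 without had a median of 1.02, between 0.22 and 4.21, so the ranges overlapped. The promoters of Rsad2 and Ifit1 are shown as 2 of the larger differences with a match. Capitals mark the matches, which read as the reverse complement on the gene's strand.
Rsad2, chr12:26456453-26456702, minus strand: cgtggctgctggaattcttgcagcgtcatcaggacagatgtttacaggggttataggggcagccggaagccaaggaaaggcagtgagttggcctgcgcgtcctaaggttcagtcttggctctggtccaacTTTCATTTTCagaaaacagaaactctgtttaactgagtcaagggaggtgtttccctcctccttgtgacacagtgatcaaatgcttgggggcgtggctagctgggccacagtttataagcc
Ifit1, chr19:34640639-34640888, plus strand: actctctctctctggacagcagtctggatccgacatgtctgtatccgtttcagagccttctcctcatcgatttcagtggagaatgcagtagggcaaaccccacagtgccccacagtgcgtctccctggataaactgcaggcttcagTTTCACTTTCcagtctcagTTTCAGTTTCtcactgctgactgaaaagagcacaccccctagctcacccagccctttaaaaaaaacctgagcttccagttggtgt
Over all promoters the motif was present in 7.38% of genes at least 4-fold higher in KO. The interferon gamma activated site, searched as TTC and GAA separated by any 3 bases, was in 7.08% of those genes and 5.92% of all, and the STAT6 type of site, with 4 bases between, in 3.69% and 4.48%. These matches are counts of letters and say nothing about binding.

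Of 7 cell cycle inhibitors 3 were at least 2-fold higher and 0 lower, with a median of 0.42, against 9.61% higher and 5.98% lower of all compared genes. Cdkn2b, the gene for the CDK4 and CDK6 inhibitor p15, read 705 in KO and 7.56 in WT, at least 5.96, and its neighbour Cdkn2a, which encodes p16 and p19Arf, read 934 in KO and 48.3 in WT (4.27). Both are well-known PRC2 targets in other mouse cells. Cdkn2b and Cdkn2a were under the low-signal limit on all WT arrays, so they were compared only through KO arrays and had to be higher. Cdkn1a, encoding p21, read 6822 in KO and 2421 in WT (1.49), while Cdkn1b (1978 in KO, 3038 in WT), Cdkn2c (3227 in KO, 3047 in WT) and Cdkn2d (5928 in KO, 4440 in WT) stayed within 2-fold. None of the 29 compared proliferation genes differed by 2-fold, 27 were below 0, as were 6391 of all 11572 compared genes, and the median was -0.46, with Mki67 at 10657 in KO and 17355 in WT and Pcna at 31643 in KO and 31876 in WT. Of 18 genes of apoptosis and the p53 response, 5 were at least 2-fold higher and 0 lower (median 0.39), led by Pmaip1, which encodes the BH3-only protein Noxa (2380 in KO, 461 in WT), and Perp (1013 in KO, 221 in WT). The promoter of Cdkn2b is shown because, unlike that of Gzma, it holds 12 CG dinucleotides (capitals) beside a difference of similar kind, bright in KO and dim in WT.
Cdkn2b, chr4:89311033-89311282, minus strand: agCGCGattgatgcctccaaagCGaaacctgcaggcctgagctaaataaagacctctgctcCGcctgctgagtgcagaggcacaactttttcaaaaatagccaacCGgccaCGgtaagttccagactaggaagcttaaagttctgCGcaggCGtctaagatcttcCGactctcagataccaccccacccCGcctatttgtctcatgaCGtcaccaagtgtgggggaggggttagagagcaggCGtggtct

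Sterol synthesis was the list with the most members at least 2-fold lower in KO. All 17 compared genes were below 0, 11 were at least 2-fold lower and 0 higher, and the median was -1.15, against -0.73 in the unpolarized and -0.87 in the Th1 pair. In the Th2 pair 5.98% of all compared genes were at least 2-fold lower. Dhcr7, which catalyses the last step of cholesterol synthesis, read 361 in KO and 1496 in WT (-2.05), and Lss, lanosterol synthase, 1304 in KO and 4058 in WT (-1.64). Hmgcs1, at the start of the pathway, read 9462 in KO and 24740 in WT (-1.39). These genes were bright on both arrays, so the floor did not affect them. Srebf2, the transcription factor gene of the pathway, read 1747 in KO and 2052 in WT (-0.23). In 15 of 17 the Th2 difference was below both other pairs, as it was for 34.1% of all compared genes.

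Among naive T cell genes 1 of 12 was at least 2-fold higher (Il7r, 6255 in KO and 3070 in WT) and 3 were lower, against 9.61% higher and 5.98% lower of all compared genes, with a median of -0.37. The lower ones were Dapl1 (102 in KO, 1925 in WT), Foxp1 (1963 in KO, 4928 in WT) and Bach2 (1282 in KO, 3097 in WT), the last of which encodes a repressor that holds T cells in naive and memory states. Treg genes had 1 higher member, Itgae (85.5 in KO, 31.9 in WT), and 3 lower, Gpr83, Nrp1 and Izumo1r, among 13 (median 0.09), and Foxp3 was under the low-signal limit on both Th2 arrays (34.9 in KO, 56.4 in WT). Of the Th17 genes (median 1.39) 4 of 5 were higher, including Ahr, the aryl hydrocarbon receptor (1241 in KO, 58.2 in WT), and Il17a was dim (23.6 in KO, 3.84 in WT). Of 8 follicular helper genes (median 0.36) 2 were higher, Icos and Tox2 (453 in KO, 65.8 in WT). Of 89 measured developmental transcription factors, a class often held silent by PRC2, 74 were under the limit on all arrays. In the 15 compared, 5 were higher and 3 lower, with a median of 0.66 and a lowest difference of -2.19. The higher ones included Hoxb4 (98.8 in KO, 4.59 in WT, at least 3.12) and Lhx2 (119 in KO, 22.4 in WT). Itgae, Ahr, Hoxb4 and Lhx2 were under the low-signal limit on all WT arrays. They were thus compared only through KO arrays and had to be higher.

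**Figure D3:**
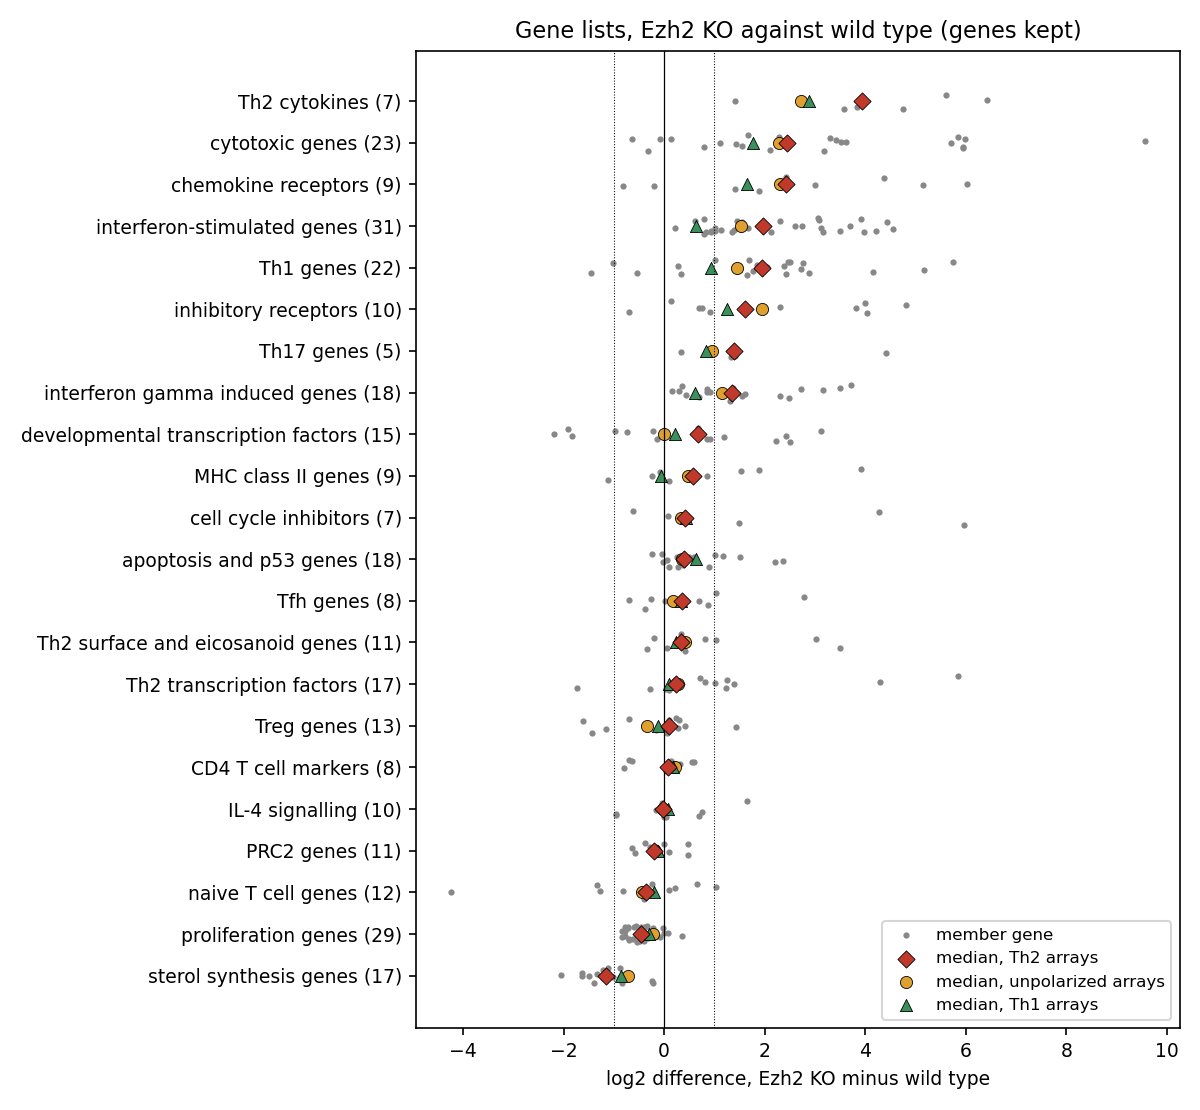
Median log2 difference (KO minus WT) of the compared members of each gene list in the Th2, unpolarized and Th1 pairs, with small points for the members in the Th2 pair, the number compared beside the name, and dotted lines at 2-fold. In the Th2 pair the median of Th2 cytokines was 3.94 and that of sterol synthesis genes -1.15. Il5, Il13, Il10 and Il6 were compared only through KO arrays, so the place of the Th2 cytokines among the lists is no ranking.

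Outside the lists, some of the largest positive differences belonged to the following genes, ranked only where the brighter Th2 array reached the low-signal limit. Ifitm1, an interferon-induced membrane protein gene, read 19887 in KO and 222 in WT (6.48), Fgl2, a fibrinogen-like effector molecule of regulatory T cells, 6208 in KO and 89.5 in WT (6.12), and Lgals3, galectin 3, 23778 in KO and 448 in WT (5.73). Gem (3788 in KO, 93.8 in WT), a small GTPase gene, differed by 5.34, Gcnt2 (1370 in KO, 35.3 in WT) by 5.28 and P2ry14 (3399 in KO, 89.9 in WT), a receptor for UDP-sugars, by 5.24. Igsf5 (795 in KO, 5.86 in WT) and Msc (630 in KO, 5.26 in WT), which encodes a basic helix-loop-helix repressor, were higher by at least 6.13 and 5.80. In the additive fit these 8 genes were called by limma with adjusted p values between 0.0143 and 0.0277, and all were higher in 3 of 3 pairs. That fit includes the Th2 pair by which they were ranked, so the calls are no separate support. Gcnt2, Igsf5 and Msc were under the low-signal limit on all WT arrays, so they were compared only through KO arrays. The calls of all 8 were lost with no filter on dim genes and without any 1 of the 3 cultures.

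Negative differences of similar rank started at moderate WT intensities. Stxbp6, a syntaxin-binding protein gene, read 35.2 in KO and 847 in WT (-4.59), Csn2, the milk protein β-casein gene, 27.3 in KO and 599 in WT (-4.45), and Morc1 28.9 in KO and 612 in WT (-4.40). Each was lower in 3 of 3 pairs, 1 of which is the Th2 pair that ranked them. In the unpolarized and Th1 pairs Stxbp6 differed by -3.39 and -3.01, Morc1 by -3.87 and -4.63, and Csn2 by -5.08 or below and -4.27 or below, its KO arrays there being at the floor. Il6ra, the IL-6 receptor gene, read 19.9 in KO and 306 in WT (-3.94), against -1.78 in the unpolarized and -1.05 in the Th1 pair. Cpe (114 in KO, 1591 in WT), a prohormone-processing carboxypeptidase gene, Myl10 (226 in KO, 1662 in WT) and P2rx7 (168 in KO, 1141 in WT), an ATP-gated channel gene, had log2 differences of -3.80, -2.88 and -2.77. Mgmt, a DNA repair gene, read 5.06 in KO and 241 in WT, a difference of -4.41 or below, and Chst15, a chondroitin sulfotransferase gene, 9.98 in KO and 167 in WT, -3.88 or below. Chst15 differed by -0.63 in the unpolarized and -0.43 in the Th1 pair. The Csn2 promoter is shown as that of a gene lower in KO, and it holds 2 CG dinucleotides (capitals).
Csn2, chr5:87699426-87699675, minus strand: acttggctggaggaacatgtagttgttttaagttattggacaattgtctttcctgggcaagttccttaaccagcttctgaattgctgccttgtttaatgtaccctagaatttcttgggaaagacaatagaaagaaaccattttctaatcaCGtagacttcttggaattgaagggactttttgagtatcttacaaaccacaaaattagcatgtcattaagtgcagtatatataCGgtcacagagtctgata

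The genes at least 4-fold higher in KO held a smaller share of CpG-rich promoters than genes within 2-fold. A promoter was called CpG-rich where at least 50% of its 250 bases were G or C and the observed over expected ratio of CG was at least 0.6. By this measure 34.2% of 325 genes at least 4-fold higher were CpG-rich, and 43.2% of 139 at least 4-fold lower, against 65.6% of 7979 genes within 2-fold. At 10-fold higher the share was 26.7% of 86 genes. Within 4 equal groups of genes ordered by mean intensity, lowest first, CpG-rich shares of the genes at least 4-fold higher were 33.2%, 45.5%, 16.7% and 33.3%, and those of all genes 42.2%, 65.0%, 69.7% and 72.6%. The share was below that of all genes in each of the 4 groups. The genes at least 4-fold higher numbered 199, 66, 30 and 30 in these groups, so the shares in the brighter groups rest on few genes. Most lay in the lowest group, where the share of all genes was also lowest. The part of brightness in the shares over all groups was not tested. Il13 and Gzma above belong to the CpG-poor promoters, as do Cxcr6, Ccr1, Ccr2 and Cd160, while Cdkn2b, Cdkn2a, Cxcr4 and Gata3 belong to the CpG-rich. These shares are counts over genes, which are not independent replicates.

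**Figure D4:**
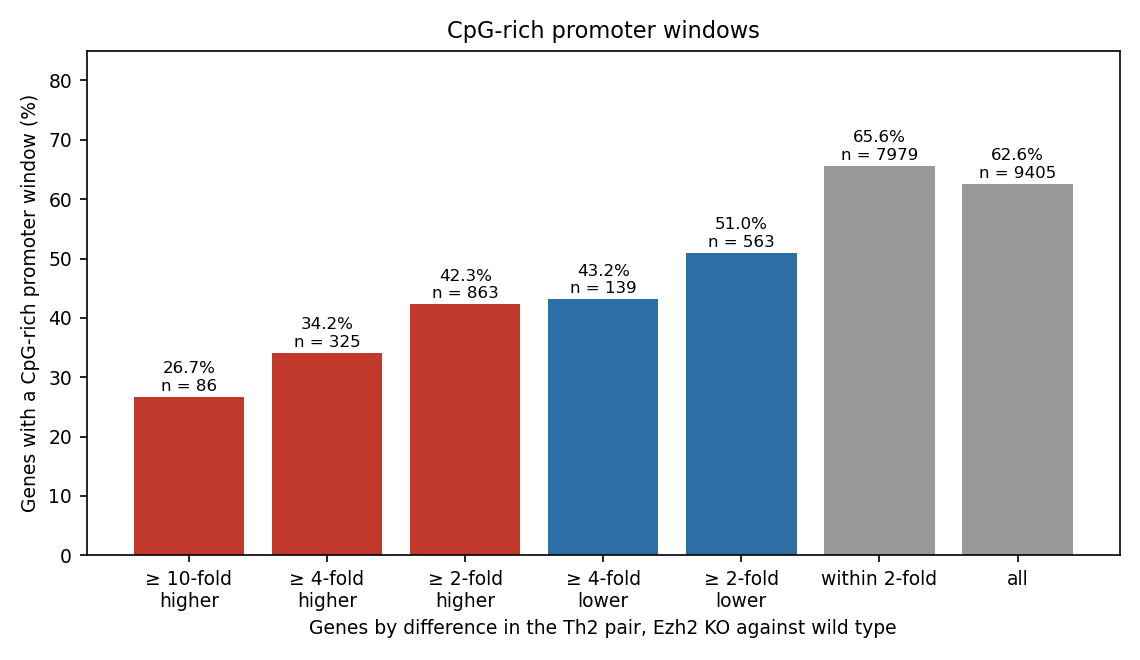
Share of genes with a CpG-rich promoter (percent) by size and direction of the Th2 difference. The share is 26.7% for genes at least 10-fold higher in KO, 43.2% for those at least 4-fold lower and 65.6% within 2-fold.

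Runs of compared genes in chromosomal order were higher, a pattern looked for after the values had been seen. Genes not compared were skipped in this order, so genes of a run need not be next to each other on the chromosome. Along the chromosomes, in the order of the RefSeq table, 39 runs of at least 3 adjacent compared genes were all at least 2-fold higher (137 of 11076 ordered genes), and 5 runs (16 genes) all at least 2-fold lower. One of the longest, on chromosome 14, held the granzyme genes Gzme, Gzmd, Gzmg, Gzmf, Gzmc and Gzmb, which differed by between 1.43 and at least 5.95. An equally long run on chromosome 7 held Ifitm5, Ifitm2, Ifitm1, Ifitm3, Ifitm6 and B4galnt4, with differences between 1.21 and 6.48. Other runs held the chemokines Ccl5, Ccl9, Ccl3 and Ccl4 on chromosome 11 and the receptors Cxcr6, Ccr1 and Ccr2 on chromosome 9. Gzmd, Gzme, Gzmf, Gzmg, Ccl3 and Ccr1 were under the low-signal limit on all WT arrays. They were thus compared only through KO arrays and had to be higher in KO. Among compared genes, Gzma on chromosome 13 lay between Gpx8 (94.1 in KO, 1.46 in WT) and Esm1 (575 in KO, 3.89 in WT), both at the floor in WT. Rsad2 and Cmpk2, antiviral genes, lay in a run on chromosome 12 with Id2 (18065 in KO, 4865 in WT), an inhibitor of E proteins. Paralogues often lie side by side and their probe sets can share signal, and the share of this in the runs was not tested.

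The 2 other cultures share no array with the Th2 pair, so they show which differences came again. Whether they share mice with it is unknown, so a difference that came again is not shown to be replicated between animals. Of the 1112 genes at least 2-fold higher in the Th2 pair, 445 were so in both other pairs, 301 in 1 and 366 (32.9%) in neither, against 7.55% and 7.28% of all genes higher in the unpolarized and in the Th1 pair. Of the 692 lower genes 133 (19.2%) were lower by 2-fold in both, 207 in 1 and 352 (50.9%) in neither. Over all compared genes, 5.8% were at least 2-fold lower in the unpolarized pair and 4.42% in the Th1 pair. The largest differences were mostly shared. Of the 119 genes at least 10-fold higher 109 (91.6%) were at least 2-fold higher in both other pairs. The additive limma fit over the 3 cultures, which includes the Th2 pair, called 966 genes higher in KO (8.35%) and 924 lower (7.98%), and among these were 581 of the 1112 and 273 of the 692. Across genes, which are not independent replicates, differences in the Th2 pair had a Pearson correlation of 0.65 with those in the unpolarized and 0.67 with those in the Th1 pair, and of 0.80 and 0.79 in the 9666 genes over the low-signal limit on both Th2 arrays.

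**Figure D5:**
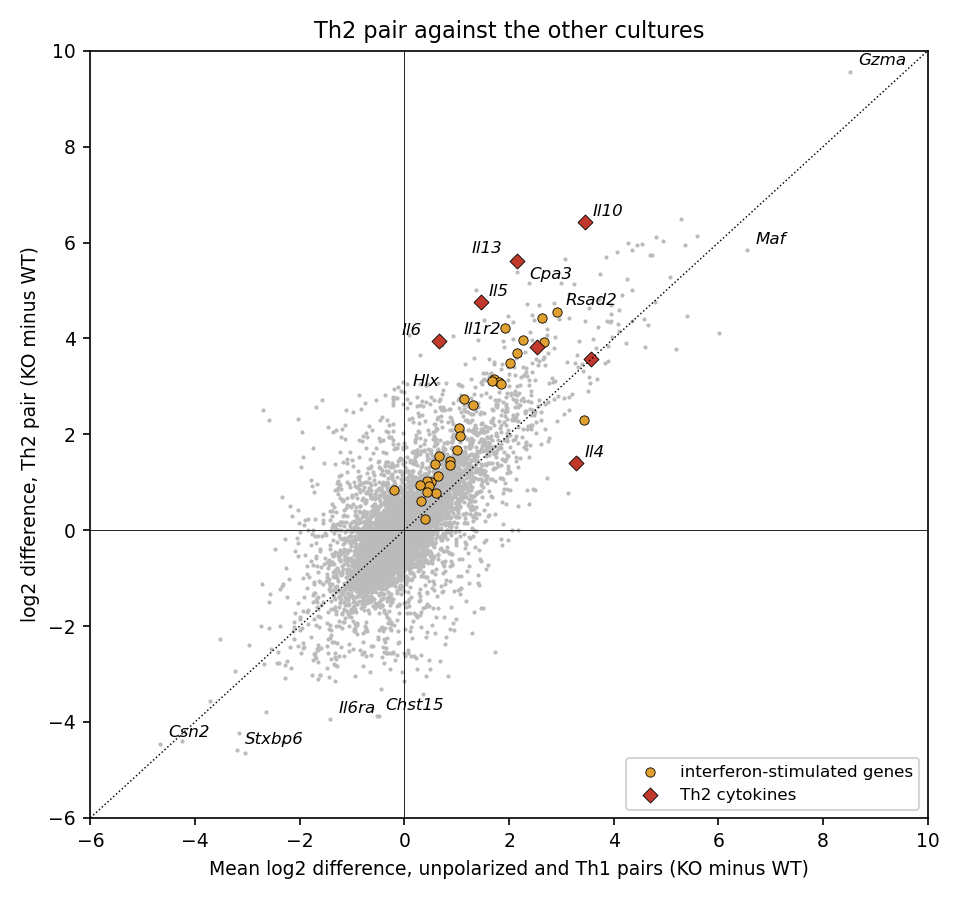
Log2 difference (KO minus WT) of each compared gene in the Th2 pair (vertical) against the mean of the unpolarized and Th1 pairs (horizontal), with a dotted line of equality. Il10 (6.43), Il13 (at least 5.62) and Il5 (4.76) lie above the line, Il4 (1.40) below it, and Il6ra (-3.94) and Chst15 (-3.88 or below) below it on the lower side.

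Some genes differed mainly in the Th2 pair as far as values go. Il1r2, the decoy receptor for IL-1, read 572 in KO and 34.7 in WT (4.04), against 1.20 and 0.66 in the unpolarized and Th1 pairs, and Inhba, the activin A subunit gene, 200 in KO and 13.8 in WT (3.85), against 0.02 and 1.40. Tox2, a factor of follicular helper and exhausted T cells, differed by 2.78 in Th2, -0.24 in unpolarized and 0.74 in Th1 cultures. Il1r2 and Inhba were named because their Th2 differences stood among the farthest above the other pairs, which is the contrast the interaction tests. That test called none of these genes after adjustment. Il1r2 was under the low-signal limit on all WT arrays, so it was compared only through KO arrays. For Inhba the WT Th2 value of 13.8 was near the floor, against 79.2 on the WT unpolarized and 53.2 on the WT Th1 array. Its KO arrays read 200 in Th2, 80.1 in unpolarized and 141 in Th1 cultures.

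Further probe sets of the same gene were read from the same 2 hybridizations, so they show how far the choice of probe set matters and not the error between samples. Over all genes at least 2-fold higher, 92.8% of 516 further probe sets had the same sign, and 90.7% of 290 for the lower ones, against 72.8% of 9207 over all genes. Fewer reached 2-fold in the same direction, 332 of the 516 and 131 of the 290, against 1073 of the 9207. Differences past 2-fold were most common among dim genes. In the lowest of 4 equal groups by mean intensity 20.8% of genes were at least 2-fold higher and 13.7% lower, and in the highest 4.18% and 1.45%.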

How the data were processed

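Each of 6 RNA samples was amplified by 3' in vitro transcription and put on its own Affymetrix array, per the labels' protocols. The authors' deposited values are linear intensities, 1 for each of 45101 probe sets and array. Per the submitters' processing notes they came from Affymetrix Expression Console, whose version and summarization method are not given in the sources used here. Each array had the same trimmed mean (500.003, with 2% cut at both ends), so all had been scaled to 1 target. Array medians lay between 61.3 and 69.1. The number of arrays limits the precision.

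The platform's annotation gave 1 symbol for 34945 probe sets, and probe sets with several (932) or no symbol (9160) and 64 controls were left out. Intensities below 11.3 (20th percentile) were set to it before taking log2. A gene was represented by its brightest probe set on average, and 11572 of 18193 genes, those reaching the overall median (64.4) on any array, were compared. Within the Th2 pair, differences are given with no test. Fits were made in limma 3.58.1 (R 4.3.3). An additive fit of culture and genotype (2 residual degrees of freedom) and a fit with the interaction of genotype and Th2 culture (1 residual degree of freedom) used all 6 arrays, eBayes and Benjamini-Hochberg adjustment over all compared genes, two-sided at 0.05. Nothing says that the arrays come from separate animals, so p-values measure the spread between these arrays, which may be technical. The fits were tested on simulated data.

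Named genes were Ezh2 and 9 core cytokine and factor genes; the 15 highest and 15 lowest differences and 6 bounds each way; 8 each way that differed most from the other pairs; and, from each list, at most 4 members with the largest differences of at least 2-fold. Other members named beside them, including those within 2-fold and the marker genes, were chosen after their values were seen. All members, lists and rules were chosen with earlier results of these data known. Promoters are RefSeq's, of GRCm38.p6, available for 9405 compared genes; 1911 have several starts and the first listed was used. Alternatives changed the scaling, floor, filter, probe set per gene, variance trend and cultures in the fit.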

Additional observations from a re-analysis of the deposited data

Results flagged for a closer look

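Of the genes at least 2-fold higher in the Th2 pair 72 of 1112, and of those at least 2-fold lower 32 of 692, had the opposite sign in both other pairs. Those among the named genes are 7. The interaction test with limma gave each of them an adjusted p of 0.638, so the difference between cultures failed the correction, and most of their intensities were dim. The log2 difference (KO minus WT) of Sct, the secretin gene, was 2.50 in the Th2 pair, against -3.27 or below in the unpolarized and -2.14 in the Th1 pair, and that of the pseudogene Fut4-ps1 was 2.10, against -1.44 or below and -0.94. The reverse held for Omp, the olfactory marker protein gene, at -2.54 against at least 2.18 and 1.26, and for Foxj1, a factor of ciliated cells, at -2.06 against at least 1.23 and 0.53. Mars2, which encodes the mitochondrial methionyl-tRNA synthetase, had -1.61 against at least 1.42 and 1.49, C1qtnf1 had -2.72 against 0.47 and 0.90, and Fitm1 had -2.67 against 0.03 and 0.41.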

How the results depend on the processing

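No paired analysis was possible because the labels give no replicate numbers, other than the additive fit itself, which takes culture as a block and compares KO with WT within each. The difference of no named gene past 2-fold, and no such list median, changed sign under the alternatives run. A shift under an alternative was set against the standard deviation of the same difference, or list median, over the 3 pairs. It was smaller in 842 of 893 comparisons of named genes (123 genes) and in 164 of 194 of list medians. That margin is widest for genes whose difference varied most between cultures, so it does not mean that a shift was small. Counts of the Th2 pair (1112 higher and 692 lower at 2-fold, 432 and 165 at 4-fold) moved by over 1.5 times as follows. A floor at the 40th percentile gave 270 and 56 at 4-fold. No filter gave 1968 and 1657 at 2-fold and 273 lower at 4-fold, and a filter at the 60th percentile of gene means gave 378 and 185 at 2-fold and 115 and 16 at 4-fold. With the probe set of the largest variance, 1066 genes were lower at 2-fold and 279 at 4-fold. The balance of genotype calls did turn. The additive limma fit called more genes higher (966) than lower (924), but 1146 higher and 1182 lower with the floor at the 40th percentile and 1284 higher and 1766 lower with the filter at the 60th. It called 411 lower under median centring, 459 higher and 242 lower with the probe set of the largest variance, and 1777 higher and 2206 lower with a variance trend. With no filter it called 0 higher and 0 lower, where 4711 genes had an unadjusted p under 0.05. Without the unpolarized, the Th1 or the Th2 pair it called 0 higher and 0 lower, with between 2952 and 3227 genes at an unadjusted p under 0.05, since 1 residual degree of freedom was left. Genotype calls thus rest on all 3 pairs. The interaction test called 0 genes under every alternative run, with between 423 and 1451 at an unadjusted p under 0.05. The causes were not tested, beyond the number of genes and arrays each alternative leaves. Of the 2-fold calls 61.6% were higher, and the share was between 54.3% with no filter and 67.1% with the filter at the 60th percentile. Set against the unpolarized pair alone, the Th2 difference was at least 2-fold above in 816 genes and below in 433, and against Th1 alone above in 683 and below in 507. Low signal over background limits dim genes, whose bounds depend on the floor.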

Other observations

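Further runs of compared genes in chromosomal order were higher in the Th2 pair, chosen after their values were seen. Genes not compared were skipped in this order. The calcium-binding protein genes S100a4 (18760 in KO, 689 in WT) and S100a6 (34576 in KO, 7791 in WT) lay in a run on chromosome 3. On chromosome 13, Ctla2a (15140 in KO, 2251 in WT) and Ctla2b (5595 in KO, 391 in WT), which encode cysteine protease inhibitors, lay in a run. The interferon-inducible genes Ifi209 (6878 in KO, 730 in WT) and Ifi213 (1510 in KO, 363 in WT) lay in a run on chromosome 1. On the same chromosome Il18r1, the IL-18 receptor gene (4204 in KO, 1311 in WT), lay in a run with Il1rl2 (253 in KO, 118 in WT) and the Il1r2 gene described above. On chromosome 14, Epsti1 (10076 in KO, 2422 in WT) and Dnajc15 (6738 in KO, 3290 in WT) were both bright and higher. The unequal probe sequences of paralogues were not examined.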
